A study of Homo sapiens with 4 samples.

Results

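Very deeply read exons that are almost always kept in the mRNA were examined in 293T cells, a line derived from human embryonic kidney, for how often they were nevertheless skipped. The exons were chosen from the authors' deposited table of skipped exons by measured values: a mean of at least 1000 junction reads over 4 libraries, a mean inclusion level of at least 0.98, and a length of 51 to 399 nt. Where an exon had several rows, the row with most reads that met these limits was taken. This gave 4546 exons of the 49507 distinct exons in the table (9.18%), in 1773 genes, and they held 49.6% of its junction reads. Since depth, inclusion and length chose the exons, their levels are given as a description and carry no test. Overlapping versions of an exon share reads: the 4546 exons lay at 4228 separate loci, and 579 of them overlapped another. The RPS18 exon at chr6:33243742-33244044 (303 nt), for example, spans other chosen exons and the intron between them. Such versions exclude each other in a transcript, so not all of them can be almost always kept. A version's level sets its reads only against skipping of the whole stretch. Group sizes and medians below count each version. They had 4270 distinct skipping junctions, so some exons share their skipping reads.

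The experiment compared cells given an antisense oligonucleotide (ASO) against SNORD89, a C/D box small nucleolar RNA, with cells given none, in 2 libraries each. The labels give a dose of 70 nM delivered by RNAiMAX, new medium at 24 hours, and RNA at 48 hours. The ASO is a gapmer with MOE-modified ends, a design whose DNA core directs RNase H to the paired RNA. The same protocol text stands on the cells without ASO, so whether they received the reagent is not clear, and no control ASO is named. All 4 libraries were made from poly(A) RNA of 293T cells and are labelled as biological replicates of their group. The name of the deposited table puts SNORD89 ahead of the untreated cells, but no header or sample label ties its 2 sets to the groups, so the comparison is given as first set against second set, and a library is named by its position within its set.

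In splicing, the U1 particle marks the 5′ splice site at the end of an exon, and U2AF and the U2 particle mark the 3′ splice site and branch point before it. Short vertebrate exons are recognised as units across the exon, and a constitutive exon is one that nearly every transcript keeps. Joining the exons on both sides while leaving out the middle one is skipping. It shifts the reading frame when the length of a coding exon is not a multiple of 3, and transcripts with early stop codons are often removed by nonsense-mediated decay before they can be counted. A skipping read spans the junction of the neighbouring exons, and an inclusion read spans either junction of the middle exon. The skipping percentage used here is 100% minus the inclusion level, with reads of each form divided by the form's effective length.

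The exons below show both ends of the range. The first 5 had among the lowest skipping, at most 2 skipping reads in all 4 libraries. The next 4 were included more in the first set by the authors' test, and the last 3 were included less there. All 12 are coding in full. Capitals mark the last 3 bases, the exon part of the 5′ splice site, where U1 can pair. The letters come from GENCODE release 29 transcripts, matched through the gene identifier and the lengths of the exon and its flanking introns, and are written 5′ to 3′ on the strand of the gene.

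RPL10, chrX:153628144-153628282, plus strand, hg19: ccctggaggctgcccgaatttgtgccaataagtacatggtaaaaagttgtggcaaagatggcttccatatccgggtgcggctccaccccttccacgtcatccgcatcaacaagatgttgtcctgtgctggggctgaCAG
RPS18, chr6:33243742-33243843, plus strand, hg19: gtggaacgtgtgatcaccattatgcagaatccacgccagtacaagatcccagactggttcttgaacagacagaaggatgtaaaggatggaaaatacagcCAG
GNB2L1, chr5:180669174-180669345, minus strand, hg19: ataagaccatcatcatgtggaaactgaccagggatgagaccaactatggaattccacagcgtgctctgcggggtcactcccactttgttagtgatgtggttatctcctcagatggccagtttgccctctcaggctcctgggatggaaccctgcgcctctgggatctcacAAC
RPL27A, chr11:8705553-8705628, plus strand, hg19: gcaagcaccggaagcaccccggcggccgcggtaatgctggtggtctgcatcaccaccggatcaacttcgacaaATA
EEF1A1, chr6:74229060-74229239, minus strand, hg19: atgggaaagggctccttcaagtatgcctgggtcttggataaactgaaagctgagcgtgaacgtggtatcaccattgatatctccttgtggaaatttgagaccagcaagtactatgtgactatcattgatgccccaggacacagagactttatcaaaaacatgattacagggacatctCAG
HARS, chr5:140062685-140062804, minus strand, hg19: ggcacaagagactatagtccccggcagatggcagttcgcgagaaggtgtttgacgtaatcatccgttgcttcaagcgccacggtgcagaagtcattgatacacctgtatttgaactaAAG
SNRPB2, chr20:16719497-16719547, plus strand, hg19: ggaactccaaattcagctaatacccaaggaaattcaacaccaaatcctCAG
CERS2, chr1:150940559-150940677, minus strand, hg19: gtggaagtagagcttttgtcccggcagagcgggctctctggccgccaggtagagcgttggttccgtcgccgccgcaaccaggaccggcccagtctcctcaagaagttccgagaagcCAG
EIF3M, chr11:32608558-32608690, plus strand, hg19: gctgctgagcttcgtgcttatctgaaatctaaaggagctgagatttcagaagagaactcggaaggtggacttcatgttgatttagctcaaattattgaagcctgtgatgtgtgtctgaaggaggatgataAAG
UBE2A, chrX:118715470-118715559, plus strand, hg19: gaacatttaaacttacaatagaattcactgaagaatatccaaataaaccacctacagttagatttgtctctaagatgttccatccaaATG
NUCB1, chr19:49407604-49407711, plus strand, hg19: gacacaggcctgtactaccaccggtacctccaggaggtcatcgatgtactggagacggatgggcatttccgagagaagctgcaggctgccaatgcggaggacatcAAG
NASP, chr1:46083135-46083263, plus strand, hg19: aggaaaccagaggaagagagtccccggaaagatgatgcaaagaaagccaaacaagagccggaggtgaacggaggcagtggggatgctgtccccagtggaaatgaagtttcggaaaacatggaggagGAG

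Of the exons shown with few skipping reads, RPL10, RPS18 and EEF1A1 end in CAG, while GNB2L1 ends in AAC and RPL27A in ATA. The exons of GNB2L1 and RPL27A therefore lack the final G carried by 80.9% of the matched exons.

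The deposited table sets a floor under these values. Each of its 65601 rows had at least 1 skipping read and 1 inclusion read, so an exon with no skipping read in any library does not have a row. Within that limit, the mean skipping percentage of the 4546 exons had a median of 0.115%, with 10% of exons under 0.0174% and 10% above 0.892%. It was under 0.1% in 2132 exons (46.9%), under 1% in 4165 (91.6%) and under 0.01% in 249 (5.48%). The median exon had 1891 junction reads per library and 6 skipping reads in all 4 libraries together. In 749 exons (16.5%) the whole evidence for skipping was 1 read, and in 1699 (37.4%) it was at most 3.

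Deeper exons had lower percentages but not fewer skipping reads. In 5 equal groups by depth, from the shallowest (median 1112 reads per library) to the deepest (median 7855 reads), the median skipping percentage went from 0.197% through 0.158%, 0.126% and 0.0995% to 0.0338%. The median number of skipping reads over the same groups was 5, 5, 6, 7 and 7. Across the 4546 exons, Spearman's rho was -0.354 between depth and skipping percentage and 0.102 between depth and skipping reads. These are descriptions across exons that share libraries, and depth enters the percentage as its denominator.

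**Figure D1:**
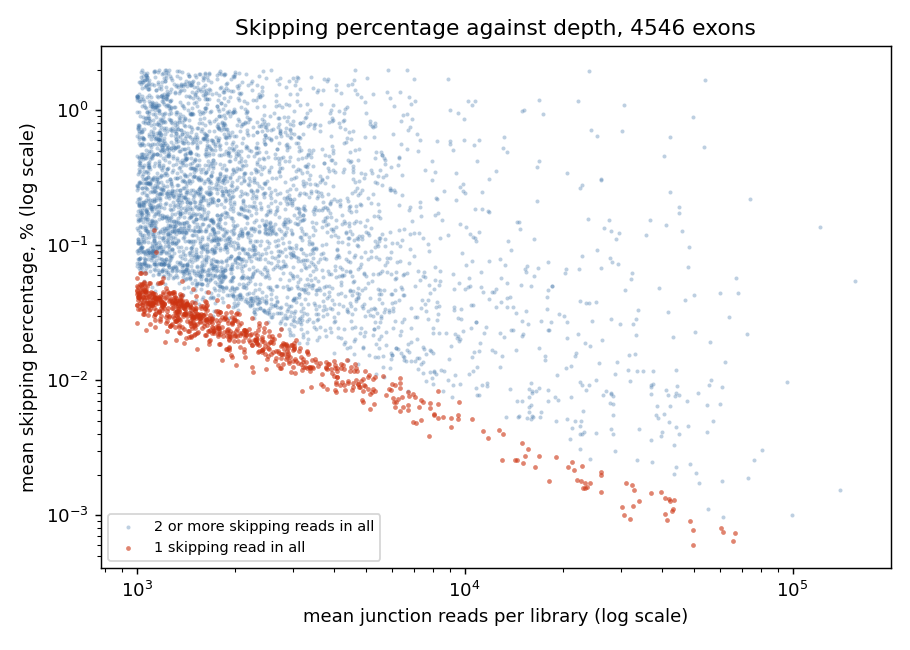
Mean skipping percentage of each of the 4546 exons against its mean junction reads per library, both on log scales; red points are the 749 exons with 1 skipping read in all. The red points form the lower edge, which falls as depth rises, and the upper edge at 2% is the selection limit.

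At the limits of the selection, values inside and outside lay close together. The shallowest exons kept were those of STT3A, PPP2R5C and RNF40, at 1000, 1000.25 and 1000.5 reads, and the deepest left out were those of MAP2K2 and TIPIN, both at 999.75, and UHRF1, at 999.5. For inclusion, the lowest kept were GLTSCR2 at 0.980021, RABGGTB at 0.980028 and PSMA4 at 0.980050, and the highest left out were AUP1 at 0.979945, PIGT at 0.979878 and GAL at 0.979570. The shortest kept exons, of EIF1AX, ATP5O and SNRPB2, had 51 nt, and the longest, of YDJC, IRAK1 and SSSCA1, had 398, 391 and 389 nt. Just outside lay exons of NDUFA7, KHSRP and SFXN1 at 50 nt, and of GRINA, SERF2 and RPS2 at 403, 408 and 413 nt.

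The 4 libraries did not report skipping alike, and library 2 of the second set stood apart. The exons had 17947748 and 18863581 junction reads in the libraries of the first set and 22272648 and 22486277 in those of the second. The libraries' skipping reads numbered 18483, 19349, 23212 and 20986, in the same order. As a summed share of junction reads, before the length correction, skipping was 0.103% in both libraries of the first set, 0.104% in library 1 of the second and 0.0933% in library 2. The sums were thus close, but their spread over exons was not. In library 2 of the second set 2791 exons (61.4%) had no skipping read, against 1681 (37.0%), 1661 (36.5%) and 1541 (33.9%) in the other libraries. Counting error alone, with the same share of an exon in all libraries, would leave 1372 exons at 0 in that library, and 1460, 1452 and 1428 in the others.

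Low counts were also rare in that library. A single skipping read was seen on 122 exons there, against 669 to 699 in each of the other libraries. Exons with any skipping read had a median of 7 such reads there and 3 in each of the other libraries. Of the exons with 1 to 20 skipping reads, 56.9% had an even number there, against 44.8%, 45.5% and 44.6%. Over all tested events of the table the even shares were 56.1% there and 45.3%, 44.9% and 45.2% in the others. Of the 749 exons with 1 skipping read in all, that read came from library 2 of the second set in 26 cases, and from the other libraries in 250, 233 and 240. Another 555 exons had skipping reads in every library but that one, the most being 63 reads, in CBS. For the other libraries the same count was 103, 87 and 91.

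**Figure D2:**
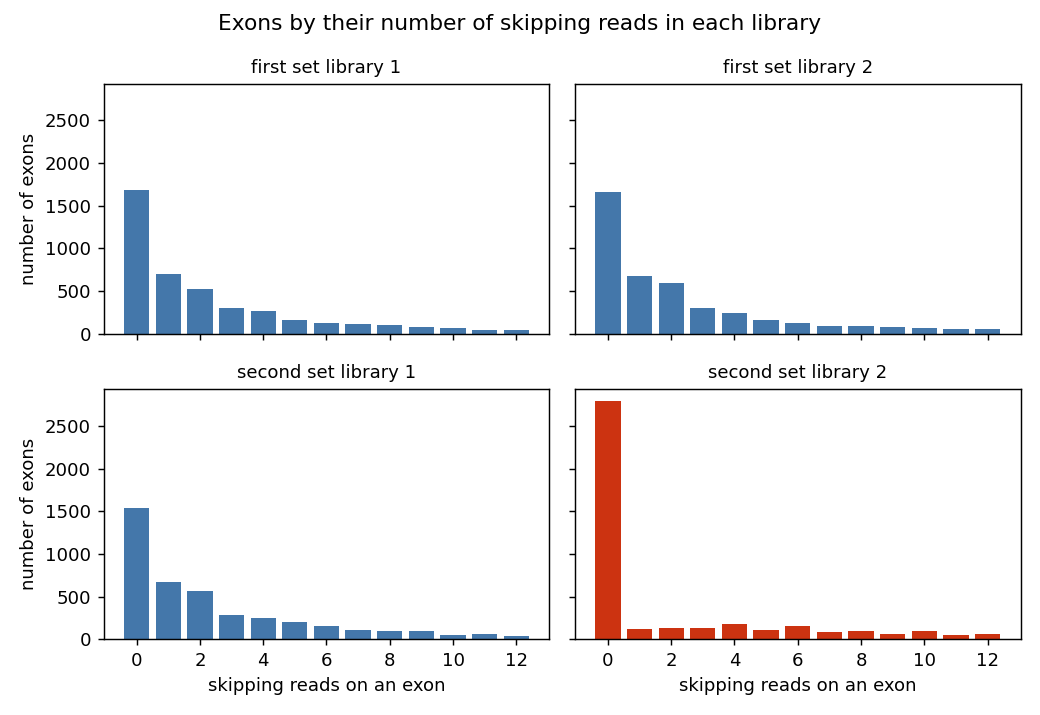
Number of the 4546 exons (y axis) by the number of skipping reads from 0 to 12 (x axis), with 1 panel for each library. Library 2 of the second set (red) has 2791 exons at 0 and 122 at 1 read, while the other libraries have 1541 to 1681 at 0 and 669 to 699 at 1.

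Agreement between libraries followed the same line. For exons with at least 10 skipping reads in a pair of libraries, the mean chi-square of the skipping share, with a value of about 1 for counting error alone, was 2.41 within the first set. It was 2.72 and 2.46 between library 1 of the second set and the libraries of the first, and 4.93 to 5.31 in the 3 pairs that held library 2 of the second set. The second set's libraries therefore differed from each other (5.31) more than library 1 of that set differed from the first set. The called exons named below, and medians by gene group, reading frame and annotated skipping junction, are given also without this library. Other values, among them medians by exon length, flanking intron, last base and exon position, are not. Its part in those values was not tested.

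The deepest exons belonged to genes of the translation machinery. Of the 10 genes with the deepest exon, 9 encode ribosomal proteins, and the other is EEF1A1, the elongation factor that brings aminoacyl-tRNA to the ribosome. These genes have many processed pseudogenes, so their junction reads are uncertain to the extent that reads could be placed on copies. The RPS2 exon at chr16:2012498-2012657 (ENSG00000140988.11, 160 nt, coding) was the deepest, with 119946, 136016, 182310 and 180405 reads and 37, 47, 54 and 24 skipping reads. Its skipping percentage was 0.0617%, 0.0691%, 0.0592% and 0.0266%, the last again in library 2 of the second set. The next deepest, the EEF1A1 exon at chr6:74227753-74227987 (ENSG00000156508.13, 235 nt, coding), had 0, 2, 2 and 0 skipping reads among 118810, 117910, 143586 and 178577. A count of 0 there, taken as at most 3 reads, allows a skipping percentage of up to 0.00505% in library 1 of the first set and up to 0.00336% in library 2 of the second.

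Within the ribosomal protein genes, exons of the same mRNA differed widely. In RPL27A, the exon of 76 nt printed above had 1 skipping read among all its reads, at a mean of 49872 per library. The next exon of RPL27A, at chr11:8706265-8706439 (175 nt, coding), had 53, 74, 126 and 77 skipping reads, or 0.188%, 0.234%, 0.271% and 0.182%. In RPL10, the exon printed above had 1 skipping read in all, while the exon before it, at chrX:153627828-153627935 (108 nt), had 18, 20, 6 and 45. The pair in RPS18 was 1 skipping read for the printed exon and 12, 15, 14 and 37 for the exon before it, at chr6:33243574-33243660 (87 nt). In both RPL10 and RPS18 the highest count came from library 2 of the second set, and library 1 of that set had the lowest percentage.

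The lowest skipping of all, in reads per junction read, was found in RPL8, which encodes a core protein of the large subunit. Its exon at chr8:146017377-146017525 (ENSG00000161016.11, partly coding) had 0, 1, 0 and 0 skipping reads among 53598, 67465, 83718 and 63104. In library 2 of the first set, 1 read is a raw share of 0.00148%, before the length correction (95% Wilson interval 0.000262% to 0.00840%). The exons of RPL10, RPS18, RPL27A and GNB2L1 printed above also had 1 skipping read in all. By mean skipping percentage, after the length correction, those of RPL27A (0.000606%) and RPL10 (0.000642%) lay below that of RPL8 (0.000741%). GNB2L1 encodes RACK1, a scaffold protein of the small ribosomal subunit. The EEF1A1 exon printed above had 0, 2, 0 and 0 among 105371, 99849, 88241 and 105338 reads. The list of 10 went on with NPM1, a nucleolar chaperone, and with RPL19, RPS16 and RPL5, each with 1 skipping read in all. None of the 10 had a skipping read in library 2 of the second set.

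At the other end, the 10 exons with the most skipping per junction read had means of 1053 to 2569 reads per library, with 1 exception. They came from C21orf33, GLTSCR2, SENP3, PFDN5, PGD, KRI1, NGFRAP1, RPS2, PRPF31 and TMEM50A, with mean skipping percentages from 1.78% to 2.00%. The exception was another exon of RPS2, at chr16:2014277-2014366 (90 nt, coding), with a mean of 23902 reads. It had 175, 281, 377 and 348 skipping reads, or 1.77%, 1.81%, 1.86% and 2.42%. All 4 values lay above 1.7%, while the deepest exon of RPS2 stayed under 0.07% in every library. The list of 10 ranks raw reads, before the length correction, and its exons were 51 to 93 nt long. By mean skipping percentage, exons of RABGGTB (198 nt, 1.997%) and PSMA4 (124 nt, 1.995%) lay above all of the 10 but GLTSCR2. The PSMA4 exon had a mean of 6688 reads. The SENP3 exon at chr17:7474201-7474251 (51 nt; SENP3 is a SUMO protease of the nucleolus) had 2.38%, 1.88%, 2.38% and 0.805%, lowest in library 2 of the second set. The PFDN5 exon at chr12:53691634-53691708 (75 nt; a prefoldin subunit) had 1.27%, 1.35%, 2.51% and 2.45%, both libraries of the second set being higher. It was not called: the authors' deposited table gives it an FDR of 0.0877, and the quasi-binomial adjusted p was 0.499.

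The groups of genes below were drawn up by name. The 204 exons of 68 cytosolic ribosomal protein genes, of 79 such genes in the table, had a median skipping percentage of 0.0158% at a median of 28014 reads, and ranged from 0.000606% to 1.97%. The 41 exons of 10 glycolysis genes, led by GPI with 10 and ALDOA with 6, had a median of 0.0211% at 12842 reads. Chaperonin and heat shock chaperones (120 exons, led by CCT3 with 12 and CCT7 with 9) had 0.0437% at 4359 reads. Cytoskeletal genes (35 exons) had 0.0476% at only 1697 reads. Splicing proteins, the hnRNP, SR and spliceosome group, had 202 exons with a median of 0.0527% at 2898 reads, 14 of them in SF3B3.

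Other groups lay near or above the median of 0.115% of all the exons. Translation factors (162 exons, led by EIF4G1 and EIF4A1) had 0.0818%, lipid and cholesterol synthesis 0.105%, nuclear transport 0.115%, DNA replication 0.120% and oxidative phosphorylation 0.126%. Aminoacyl-tRNA synthetases (75 exons, with 10 each in MARS and VARS) had 0.136%, and proteasome subunits (113 exons) had 0.139%. The highest median, 0.200%, was that of the ubiquitin and NEDD8 pathway, with 59 exons at 1488 reads. Median depth differed between these groups, from 1488 to 28014 reads, and its part in their order was not tested. Without library 2 of the second set the median of all the exons was 0.121%. It was then 0.0195% for ribosomal proteins, 0.0256% for glycolysis, 0.0506% for splicing proteins, 0.140% for synthetases and 0.229% for the ubiquitin pathway. Lipid synthesis then lay above the median of all the exons, at 0.128%, and DNA replication below it, at 0.110%. Cytoskeletal genes, at 0.0635%, then lay above splicing proteins. Chaperones had 0.0504%, translation factors 0.0929%, nuclear transport 0.113%, oxidative phosphorylation 0.127% and the proteasome 0.134%.

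A few genes contributed long runs of such exons. FASN, the multidomain fatty acid synthase, had 19 of its 20 exons in the table among the 4546, the most of any gene. ACLY, which makes cytosolic acetyl-CoA, had 15 of 16, MTHFD1, an enzyme of folate metabolism, 15 of 20, SF3B3, a subunit of the U2 particle's SF3B complex, 14 of 18, and CCT3, a chaperonin subunit, 12 of 14. Most genes had few: 677 had 1 exon and 248 had at least 5. Within FASN the mean skipping percentage ran from 0.0167% to 0.585%, a 35.1-fold range, with a median of 0.0856%. The highest was at chr17:80045830-80045910 (81 nt), with 8, 7, 2 and 7 skipping reads, and the lowest, at chr17:80042911-80043032 (122 nt), had 1 skipping read among 9641.

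The range was wider in ACLY and narrower in CCT3. ACLY exons ran from 0.0123% to 1.13%, a 91.7-fold range. The highest, at chr17:40068673-40068795 (123 nt), had 7, 6, 2 and 9 skipping reads, and the lowest, at chr17:40061775-40061911 (137 nt), had 1 of 10919. MTHFD1 ran from 0.0324% to 1.43%, and its highest exon, at chr14:64920472-64920579 (108 nt), had 22, 19, 28 and 38 skipping reads, so that every library showed it. SF3B3 ran from 0.0182% to 0.806%. Its highest exon, at chr16:70573007-70573110 (104 nt), had 8, 12, 3 and 0 skipping reads, the 0 being in library 2 of the second set. CCT3 ran from 0.00517% to 0.0690%, at 2749 to 17929 reads. The low end of each range rested on 1 or 2 skipping reads, so the ratios carry a large counting error.

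**Figure D3:**
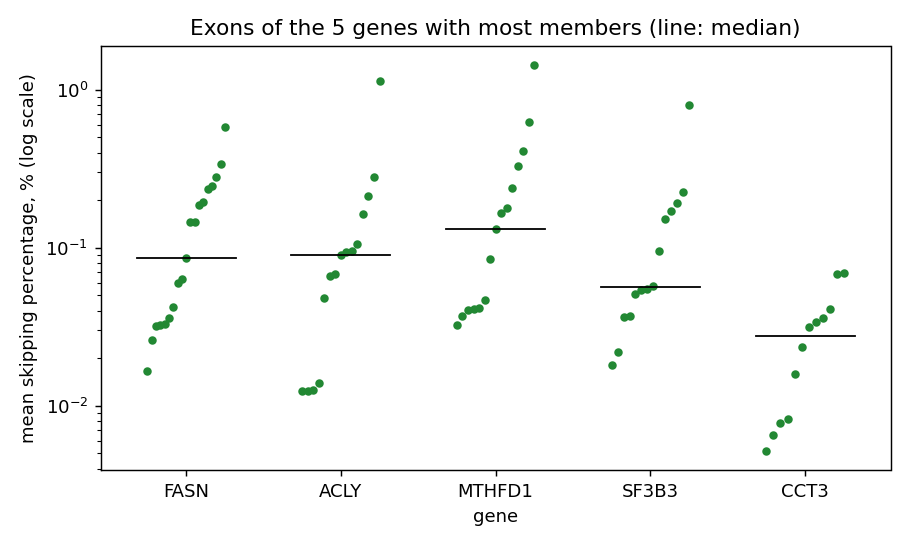
Mean skipping percentage (log scale) of each near-constitutive exon of FASN, ACLY, MTHFD1, SF3B3 and CCT3, with 1 point per exon, sorted within its gene, and a line at the median. ACLY spans 0.0123% to 1.13% and CCT3 spans 0.00517% to 0.0690%.

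The sets were then compared, to ask whether skipping of these exons differed between cells with and without the ASO. The summed skipping share was 0.103% ± 0.000289 (SD, n = 2) in the first set and 0.0988% ± 0.00770 (SD, n = 2) in the second, a difference of -0.00401 percentage points. This was smaller than the SD of the second set, and an exact two-sided permutation test over the 4 libraries gave p = 1, where 2 libraries against 2 cannot go below 0.3333. Without library 2 of the second set the difference was 0.00102 points, of the opposite sign. Per exon, the median difference in skipping percentage, second minus first set, was -0.0138 points, against -0.140 points over all tested events. Skipping was higher in the second set in 2079 exons (45.7%), lower in 2466 and equal in 1, against 43.5% higher over all tested events. Without library 2 of the second set it was higher in 1957, lower in 2423 and equal in 166.

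By the quasi-binomial model, whose error is a moderated spread between libraries, 0 of the 4546 exons had an adjusted p under 0.05, against 0.00367% of the 54503 tested events. The smallest adjusted p over these exons was 0.483. At an unadjusted p under 0.05 there were 335 exons (7.37%), against 8.37% of tested events. More skipping in the second set was found in 161 (3.54% of the 4546, background 5.02%) and less in 174 (3.83%, background 3.34%). limma on the log2 ratio of the forms also called 0, with 113 exons (2.49%) at an unadjusted p under 0.05 against 4.84% of tested events. In 942 exons (20.7%) the 2 sets did not overlap, against 22.9% of tested events. Inclusion was higher in the first set in 364 of them (8.01%, background 9.36%) and lower in 578 (12.7%, background 13.6%). Leaving out library 1 of the second set, so that library 2 alone stood for that set, the quasi-binomial model called 51 exons (1.12%), against 1.81% of tested events. The lone library is then assumed to vary like the first set, and 40 of the 51 had more skipping in it. Leaving out any other library gave 0 calls among these exons.

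The authors' test made calls among these exons, but a smaller share than in the table as a whole. Of the exons, 26 (0.572%) had in the authors' deposited table an FDR under 0.05, against 5.72% of tested events, and 82 (1.80%) had a p-value under 0.05, against 14.3%. Of the 26, 13 were included more in the first set (background 3.03%) and 13 less (background 2.68%). The rule that chose the exons bounds these differences: with a mean inclusion of at least 0.98 over the 4 libraries, the sets can differ by at most 0.04 in inclusion level, and the largest absolute difference was 0.026. The median skipping percentage of the 26 was 1.64%, and with the inclusion limit at 0.99 none was left. In 20 of the 26 the sets did not overlap, against 22.9% of tested events; these 26 were selected for a difference between the same sets.

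Of the 13 exons included more in the first set, 12 had their highest skipping percentage in library 2 of the second set. Without that library, 4 of the 13 kept 50% or more of their difference. Of the 13 included less in the first set, 12 kept 50% or more without it. In this second direction library 2 of the second set held the highest value in 0 exons. Their selection for less skipping in that set left little room for another outcome. Among those named below, that library had the lowest value in NDUFA3, HNRNPU-AS1, TIMMDC1, SLC25A1, JTB and the 138-nt exon of GART. It did not in UBE2A, NUCB1, NASP and FAM207A.

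By gene group, the authors' calls numbered 0 or 1, where 0.572% of all 4546 exons were called, so the groups are too small to be told apart by these counts. None of the 204 ribosomal protein exons had an FDR under 0.05 in the authors' deposited table, and the same held for the exons of the proteasome, glycolysis, chaperone, cytoskeleton, replication and lipid synthesis groups. The 6 remaining groups had 1 called exon each: EIF3M among translation factors, HARS among synthetases, SNRPB2 among splicing proteins, CSE1L in nuclear transport, NDUFA3 in oxidative phosphorylation and UBE2A in the ubiquitin pathway. By the quasi-binomial model, the share of exons with an unadjusted p under 0.05 ran over the 13 groups from 3.92% in lipid synthesis (2 of 51) up to 12 of 75 exons in the synthetases, against 8.37% of tested events. It was 13.6% in the ubiquitin pathway, 11.7% in chaperones and 5.39% in ribosomal proteins, and lay between 5.71% and 9.76% in the other groups.

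The exon of HARS, the cytosolic histidyl-tRNA synthetase (ENSG00000170445.8, printed above), had the largest difference. Skipping reads were 4 of 998 and 0 of 946 in libraries of the first set, and 13 of 968 and 25 of 1236 in those of the second. The skipping percentages were 0.721%, 0%, 2.40% and 3.59%, so the sets did not overlap, and the 0 allows a skipping percentage of up to 0.571%. In the authors' deposited table the inclusion difference was 0.026, at an FDR of 0.00109, while the quasi-binomial adjusted p was 0.483. Without library 2 of the second set the difference in skipping was 2.04 points, against 2.64 with it.

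CERS2, a ceramide synthase that makes very long chain ceramides (ENSG00000143418.15), had a pattern like that of HARS. Its printed exon had 5, 11, 19 and 30 skipping reads, or 0.498%, 1.21%, 2.61% and 3.09%, without overlap between the sets, and the FDR in the authors' deposited table was 0.00157. TMEM147 encodes a membrane protein of the endoplasmic reticulum. Its exon at chr19:36037574-36037931 (358 nt, non-coding in its matched transcript) had 0.875%, 0.939%, 2.13% and 2.39%, with both libraries of the second set above both of the first. The difference without library 2 of the second set was 1.75 points in CERS2 and 1.23 points in TMEM147, against 1.99 and 1.35 with it.

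In several other genes only library 2 of the second set was high. SNRPB2 encodes the U2 particle protein U2B″, and its printed exon (ENSG00000125870.6) had 1, 3, 3 and 40 skipping reads among 1047, 941, 1092 and 1069. The percentages were 0.128%, 0.427%, 0.368% and 4.96%, so that library 1 of the second set lay between the libraries of the first. The difference was 2.39 points, and 0.0906 without that library, although the FDR in the authors' deposited table was 0.00128. EIF3M, a subunit of the translation initiation factor eIF3 (ENSG00000149100.8), had 14, 13, 12 and 78 skipping reads, or 0.758%, 0.774%, 0.652% and 3.46%. Its difference of 1.29 points became -0.114 without library 2 of the second set.

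Exons of PPP2R4, an activator of the phosphatase PP2A, and of DCXR, a xylulose reductase, also had their highest skipping in library 2 of the second set. PPP2R4 had 0.639%, 0.928%, 0.877% and 4.03% at chr9:131891264-131891389 (126 nt), and its difference went from 1.67 to 0.0939 points without that library. DCXR had 0.979%, 0.821%, 1.21% and 3.82% at chr17:79994420-79994519 (100 nt), with 1.61 and 0.310 points. CSE1L, the export receptor of importin alpha, had 0.331%, 0.250%, 1.05% and 3.90% at chr20:47674990-47675085 (96 nt), with 2.19 and 0.762 points. GGCT, a gamma-glutamylcyclotransferase, had 1.21%, 0.319%, 1.78% and 4.27% at chr7:30538419-30538554 (136 nt), with 2.26 and 1.02 points. In DCXR, CSE1L and GGCT the sets did not overlap, since library 1 of the second set also lay above the first set, though by less.

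In the other direction, NDUFA3 encodes a subunit of respiratory complex I. Its exon at chr19:54610118-54610285 (ENSG00000170906.11, 168 nt, partly coding) had 37 of 2273 and 29 of 2794 skipping reads in libraries of the first set, then 25 of 4048 and 10 of 3248 in those of the second. The percentages were 3.20%, 2.05%, 1.23% and 0.614%, with every library of the first set above both of the second. The difference of -1.71 points was -1.40 without library 2 of the second set. The inclusion difference in the authors' deposited table was -0.017, at an FDR of 0.00115, and the quasi-binomial adjusted p was 0.483. UBE2A, a ubiquitin-conjugating enzyme that acts with RAD18 (ENSG00000077721.11, printed above), had 19, 22, 6 and 5 skipping reads, or 2.65%, 3.14%, 0.833% and 0.883%. Here the libraries of each set were close together, and the difference of -2.04 points was -2.07 without library 2 of the second set.

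NUCB1, a calcium-binding protein of the Golgi (ENSG00000104805.11, printed above), had 2.89%, 2.47%, 0.443% and 1.09%, lower in both libraries of the second set. NASP, a histone H1 and H3 chaperone (ENSG00000132780.12, printed above), had 2.56%, 1.65%, 1.03% and 1.04%, from 49, 37, 31 and 27 skipping reads. Both kept their differences without library 2 of the second set, at -2.24 points for NUCB1 and -1.08 for NASP. TIMMDC1, an assembly factor of complex I, had 15, 16, 6 and 0 skipping reads at chr3:119219542-119219707 (166 nt), and the 0 of 1230 allows a skipping percentage of up to 0.487%. Its difference of -2.03 points was -1.55 without that library. The exon listed under HNRNPU-AS1, at chr1:245017620-245017805 (ENSG00000188206.5, 186 nt), had 2.92%, 1.82%, 1.33% and 0.852%, with -1.28 points and -1.04 without it. That name is of an antisense gene, the counting is not stated to use strand, and the exon was not matched to release 29, so the gene behind these reads is uncertain.

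In FAM207A and JTB the sets overlapped. FAM207A had 4.26% in library 1 of the first set at chr21:46363599-46363707 (109 nt), and 0.554%, 0.313% and 0.890% in the others. Its difference of -1.81 points was -2.10 without library 2 of the second set and 0.0474, of the opposite sign, without library 1 of the first. JTB had 1.32%, 3.69%, 2.08% and 0% at chr1:153949169-153949398 (230 nt, non-coding in its matched transcript), and its difference of -1.46 points was -0.424 without library 2 of the second set. SLC25A1, the mitochondrial citrate carrier, had 2.60%, 1.86%, 1.66% and 0.535% at chr22:19165240-19165378 (139 nt), without overlap between the sets. Its difference of -1.13 points was -0.574 without library 2 of the second set.

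GART, a trifunctional enzyme of purine synthesis (ENSG00000159131.12), had a call in each direction. Its second exon, at chr21:34911477-34911662 (186 nt, partly coding), had 1, 3, 2 and 22 skipping reads, or 0.116%, 0.391%, 0.459% and 4.53%. The exon at chr21:34882090-34882227 (138 nt, coding) had 17, 15, 8 and 4 skipping reads, or 2.96%, 2.84%, 1.31% and 0.623%. The second exon's difference went from 2.24 to 0.205 points without library 2 of the second set, and that of the 138-nt exon from -1.93 to -1.59.

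**Figure D4:**
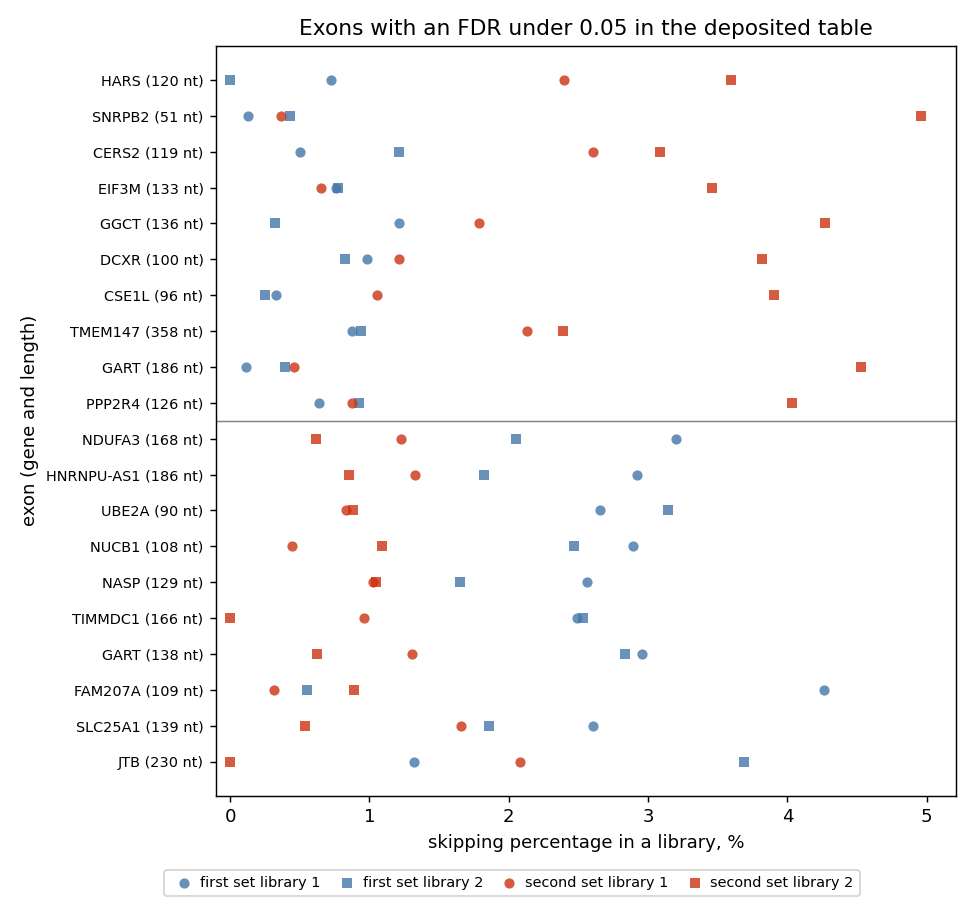
Skipping percentage in each of the 4 libraries (x axis) for the 20 exons named from the 26 with an FDR under 0.05 in the authors' deposited table; exons above the line were included more in the first set. In the upper exons library 2 of the second set (red squares) is the highest value throughout, up to 4.96% in SNRPB2, while in the lower exons other than FAM207A and JTB both libraries of the first set (blue) lie above both of the second (red).

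The exons that varied most over the 4 libraries, by chi-square of their skipping reads, were those of BSG, SNRPB2, UNG, EIF3M and RPL27. BSG, which encodes basigin, a chaperone of lactate transporters, had 48, 35, 23 and 126 skipping reads at chr19:579500-579656 (157 nt). UNG, the uracil-DNA glycosylase of base excision repair, had 0, 0, 0 and 24 at chr12:109536994-109537089 (96 nt), the last among 1092 reads, a raw share of 2.20% (95% Wilson interval 1.48% to 3.25%). The 0 counts of UNG allow skipping percentages of up to 0.348%, 0.380% and 0.486%. In RPL27 at chr17:41151950-41152119 (170 nt) the low value was in library 1 of the first set, with 98, 234, 375 and 215 skipping reads, or 0.524%, 1.03%, 1.20% and 0.787%. In 4 of these 5 exons, all but RPL27, library 2 of the second set was the high one.

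Features that the rule did not use were then read from the annotation. Of the 4546 exons, 4204 (92.5%) were matched to GENCODE release 29, and 3711 of those (88.3%) were coding in full. The skipping junction itself, joining the neighbouring exons, was annotated in some transcript of the gene for 785 (18.7%) of the matched exons. Among 1089 exons of the same depth and length but lower inclusion, it was annotated for 86.6% of the 1016 matched. Among 17958 equally included but shallower exons, it was annotated for 16.2% of the 14950 matched (83.2%). These groups differ by the rule in inclusion or depth, so no test was made.

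Exons with an annotated skipping junction had higher skipping percentages, given here as a description. Their median skipping percentage was 0.387%, against 0.0928% for the 3419 exons without one, at similar depths of 1864 and 1919 reads. Without library 2 of the second set the medians were 0.385% and 0.101%. The summed share was 0.230%, 0.232%, 0.241% and 0.208% in the 4 libraries, against 0.0727%, 0.0720%, 0.0725% and 0.0679%. The order was thus the same in every library, library 2 of the second set included. A single skipping read in all was the evidence for 5.99% of the exons with an annotated junction and for 18.5% of those without. A mean skipping percentage of at least 1% was found in 176 (22.4%) and 187 (5.47%). A length divisible by 3 was about as frequent in both, at 43.4% and 41.4%. Exons annotated as skipped can still meet the inclusion limit, and the release used for the annotation is not known to be the one used for counting.

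Skipping differed little with exon length, frame or end. A length divisible by 3 was found in 1900 exons (41.8%), with a median skipping percentage of 0.115%, and the other lengths had medians of 0.113% (remainder 1) and 0.119% (remainder 2). Without library 2 of the second set these were 0.120%, 0.121% and 0.126%. Across 6 classes of length the median lay between 0.0999%, at 51 to 75 nt, and 0.135%, at 201 to 399 nt. Spearman's rho was 0.0153 for exon length and 0.103 for the shorter flanking intron, as descriptions across exons. For the shorter flanking intron the median was 0.101%, 0.0971% and 0.106% in the 3 groups with the shorter introns, of 4 groups of about equal size, and 0.156% in the group with the longest, where depth was also lower, at 1699 reads against 1909 to 2050.

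The ends of the exons had the letters usual for 5′ splice sites. The last base was G in 3400 of 4204 (80.9%), A in 9.06%, T in 7.06% and C in 126 exons. The last 3 bases were CAG in 21.7%, AAG in 19.7% and GAG in 11.1%. The median skipping percentage was 0.117% for exons ending in G and between 0.121% and 0.126% for the other last bases. A final G was about as frequent in the matched shallower exons (80.1%) and in the matched exons of lower inclusion (79.1%). The second exon of a transcript, 777 exons in all, had a median of 0.134%.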

How the data were processed

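Poly(A) RNA of 293T cells was sequenced as read pairs of 150 bases in 2 libraries with and 2 without an ASO, per the labels. Cutadapt, STAR and the hg19 build are named in the submitters' processing notes. The version and settings of rMATS, whose layout the file headers show, and the annotation are not given in the sources used here. The deposited table holds, per event, the junction read counts of 2 libraries of a set joined in 1 cell. The p-value and FDR are the authors' own, and the difference in inclusion level is a score deposited by the authors, first set minus second. Values used here were recomputed from the reads. Members and gene lists were chosen with earlier results of these data known.

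The 54503 events with a mean of at least 20 reads were fitted by a quasi-binomial model, its dispersion moderated with limma 3.58.1 in R 4.3.3, with Benjamini-Hochberg adjustment over all of them. It was tested only on simulated reads with counting error alone, so that test did not cover spread between libraries. edgeR was planned but was not used. The joined cells were split into read counts per library, and the quasi-binomial model was fitted to these. limma on the log2 ratio of the forms, with a pseudocount of 0.5, was an alternative. A count of 0 is given the limit that 3 skipping reads would set, after the length correction; intervals are 95% Wilson intervals of raw read shares, and both cover counting error only. The exons had 17947748 to 22486277 junction reads per library. P-values refer to these libraries only. In the quasi-binomial model, dispersion was moderated toward that of events with a like count of the rarer form, and never fell below counting error. An exon's error is therefore not only its own spread between libraries. Exons named are, with at most 1 per gene in each list, the 10 deepest, the 10 with the lowest and the 10 with the highest skipping per read, up to 10 in each direction by the authors' FDR, the 5 with the largest chi-square over libraries, 3 on each side of each limit, and the 5 genes with most exons. Of the table's 65601 rows, 48541 were matched to GENCODE release 29, and no coordinate was converted. Of 5 markers for the line, VIM had a row with a mean of 4605 reads, the deepest rows of KRT8 and PAX2 had 34.75 and 15.75, and NES and KRT18 had no row; none of 11 markers of other cell types had a row. The table holds skipping events only, so these reads are no measure of expression.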

Additional observations from a re-analysis of the deposited data

How the results depend on the processing

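The number of exons followed the depth limit, at 8353 for a mean of at least 500 reads and 2125 for at least 2000, and the median skipping share was 0.177% and 0.0667%, respectively; fewer or more exons pass by construction. It was 0.0709% without division by form length. The other definitions, including 4448 exons when the deepest row was chosen before the limits (added after seeing the data), kept the count within 1.5 times. With a library left out, the number of exons was 4483 to 4614 and the median skipping share 0.107% to 0.120%. The exons without a skipping read, 0 by construction in the table, were then 486 and 475 when a library of the first set was omitted (library 1, then 2), and 537 and 154 when a library of the second was. The difference of the summed shares was -0.0109 to 0.00102 points with a library left out.

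The 26 exons with an FDR under 0.05 in the authors' deposited table were 10 at an FDR under 0.01, 55 and 6 at depth limits of 500 and 2000 reads, and 40 and 0 at inclusion limits of 0.97 and 0.99. The quasi-binomial model called 0 in every setting tried except with a library left out, where it called 0 to 51; the 51 came when the second set lost its library 1. Of the 20 exons named from the authors' calls, 19 kept the direction of the log2 ratio of skipping odds, second set over first, with every library left out in turn, among them FAM207A, which was at -1.93 and only at -0.0084 without library 1 of the first set; that of EIF3M became -0.20 without library 2 of the second set. When the second set lost its library 1, 7 of the 20 passed an adjusted p of 0.05 by the quasi-binomial model. DESeq2, like edgeR, was not run. No paired analysis was possible because the joined cells of the table carry no replicate numbers. Depth limits the lowest shares: with 1 to 3 skipping reads an exon's percentage is known only to within its counting interval.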
